A study of Mus musculus with 19 samples.

Results

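The Gimap genes encode GTPases of the immunity-associated protein family, small guanine nucleotide-binding proteins made mostly by lymphocytes. The mouse genes Gimap1, Gimap3, Gimap4, Gimap5, Gimap6, Gimap7, Gimap8 and Gimap9 were taken by symbol from both deposited tables, with no use of their values. These 8 genes stand among 16259 symbols listed in one or both tables, 14290 in one and 14818 in the other. All 8 were listed in every library, and all passed the filter on low values, 1 RPKM or more in 2 or more libraries.

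Most Gimap proteins sit on the membranes of lysosomes, vesicles or other organelles and share a GTPase domain named after AIG1, a plant gene induced during disease resistance. They are known for keeping T cells alive: loss of Gimap5 in the BB rat causes a severe lack of T cells, and Gimap1 is required for mature T and B cells. Their messages are abundant in resting T cells, and several family members have been linked to Bcl-2 family proteins, to autophagy and to the length of time a naive T cell survives.

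RNA was sequenced in 19 libraries, in 9 groups, of regulatory T cells (Tregs, the Foxp3-expressing CD4 T cells that restrain immune responses) from C57Bl/6 mice. In every group, controls included, the mice carried Foxp3-CRE-YFP, in which Foxp3 drives Cre recombinase with a yellow fluorescent protein, and YFP-positive cells were used. The strain of the wild-type (WT) groups names no floxed allele. That of the deficient groups was homozygous for floxed c-Rel (c-Rel F/F) or floxed p65 (p65 F/F). By this strain, Cre removes these NF-kB subunits in Foxp3-expressing cells. The age and sex of the mice were not given in the sources used here. The stimulated set held 6 libraries of cells cultured for 16 hours on coated anti-CD3 (5 ug/mL) with anti-CD28 (1 ug/mL) and interleukin 2 (10 ng/mL). Its groups were WT with water, WT with pentoxifylline at 500 ug/mL in water, and c-Rel-deficient, with 2 libraries each. The c-Rel-deficient libraries of this set are titled c-Rel-/-, which, unlike their strain, names no deletion limited to Foxp3-expressing cells. No label says whether the c-Rel-deficient cells received the water diluent. Pentoxifylline inhibits phosphodiesterases, which degrade cyclic AMP. The sorted set held 13 libraries of uncultured cells from spleen and lymph nodes, split into resting Tregs (rTreg, CD44 low) and activated Tregs (aTreg, CD44 high). It had 2 libraries for each of WT, p65-deficient and c-Rel-deficient rTregs, 3 for WT aTregs and 2 each for p65-deficient and c-Rel-deficient aTregs. No label says that libraries of a group came from separate mice, so p-values measure the spread between these libraries, which may be technical where no value shows otherwise. In these bulk libraries, fewer cells with a message and less message per cell cannot be told apart.

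Values are RPKM, reads scaled by gene length and by the mapped reads of the library, which allows levels of different genes to be compared. The 2 sets were normalised separately and were compared only within themselves. Sequencing was set at 30 M reads a library in the submitters' design text. Depth in the stimulated set, read from whole-read steps, lay between 0.682 and 0.949 of that of the first water library. In the sorted set, whose deposited values had been adjusted, the depth is unknown. All 7 Treg markers checked (Foxp3, Il2ra, Ctla4, Ikzf2, Cd4, Cd3e and Tnfrsf18) averaged at least 1 RPKM in all 9 groups, but single libraries stood apart. The second c-Rel-deficient rTreg library had Foxp3 at 28.1, Ikzf2 at 4.35 and Il2ra at 65.5 RPKM against 73.6, 43.2 and 178 RPKM in the first, and the third WT aTreg library had Ctla4 at 165 RPKM against 315 and 338 RPKM in the others. Cd44, the gene of the sorted trait, was at 49.4, 45.2 and 26.4 RPKM in WT aTregs and 19.4 and 10.9 RPKM in WT rTregs. The third WT aTreg library was thus the nearest of its group to rTregs in Cd44. In aTregs Cd44 was at 34.5 and 32.8 RPKM without p65 and 61.2 and 32.9 RPKM without c-Rel. Rel, the c-Rel gene, was at 55.1 and 55.8 RPKM in the water libraries and at 2.44 and 24.96 RPKM in the stimulated c-Rel-deficient libraries, so the second of these kept a large part of the message. With pentoxifylline Rel was at 93.5 and 79.9 RPKM, above both water libraries. In the sorted set Rel was at 5.37 and 1.39 RPKM in c-Rel-deficient against 10.9 and 20.5 RPKM in WT rTregs, and at 1.56 and 3.01 RPKM against 18.6, 21.3 and 22.01 RPKM in aTregs. Rela, the p65 gene, overlapped between p65-deficient and WT rTregs, while in aTregs it was at 46.8 and 56.1 RPKM without p65 and 68.3, 62.3 and 64.2 RPKM in WT. A value for the whole gene is only a partial check of that label. The X-linked silencing RNA Xist was at 0.0153 and 18.7 RPKM in the water libraries and at 0.00965 and 22.3 RPKM in the pentoxifylline libraries. Across water and pentoxifylline, libraries with the same number were alike and libraries of a group were not. In both groups the libraries were thus not repeats of 1 RNA sample. Both c-Rel-deficient libraries had low Xist, at 0.0111 and 0.0209 RPKM, unlike the second water and pentoxifylline libraries. The Y-linked gene Ddx3y was at 27.8 and 2.73 RPKM with water, 39.7 and 6.33 RPKM with pentoxifylline and 23.7 and 27.7 RPKM in c-Rel-deficient cells. In both genes the second water and second pentoxifylline libraries thus stood apart from the rest of the stimulated set. The c-Rel-deficient group had no such library. Whether the mice of these groups differed in sex was not tested.

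The 8 genes lie side by side on chromosome 6, within 123.6 kb (48647234 to 48770851, GRCm38, GENCODE M21). Their order is Gimap8, Gimap9, Gimap4, Gimap6, Gimap7, Gimap1, Gimap5 and Gimap3, and only Gimap6 and Gimap3 are on the minus strand. Gimap1 (48739054 to 48743795) has 3 exons in its longest coding transcript and overlaps Gimap1os, an antisense transcript. A readthrough gene, Gm28053, overlaps Gimap7, Gimap1 and Gimap5. The library kit does not mark strand and neither transcript is listed in the tables, so reads of these overlapping genes cannot be told apart from those of the members. Gimap3 and Gimap5 are close relatives: 190 stretches of 50 bases are the same in their transcripts, 7.5% of those of Gimap3 and 10.0% of those of Gimap5. Values of that pair are uncertain to this extent, since how reads matching both were counted is not given in the sources used here. No other pair of members shared a stretch of that length.

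Promoter sequences are shown for the pair of members with the largest change under pentoxifylline (Gimap1 and Gimap6), for Gimap3, the most abundant member in 7 of 9 groups, and for Gimap9, which was not called with the drug; these were chosen after the values were seen. Each is the first 240 bases of the RefSeq promoter sequence (RefSeq, GRCm38.p6), 5′ to 3′ along the gene. Any bases between the end of this window and the start site were neither shown nor searched. Capitals mark 3 matches: RUNX on the reverse strand in Gimap1 (TGTGGT), and forkhead (TGTTTAC) and then the KLF box (CCACCC), both on the reverse strand, in Gimap3.
Gimap1, chr6:48738797-48739036, plus strand: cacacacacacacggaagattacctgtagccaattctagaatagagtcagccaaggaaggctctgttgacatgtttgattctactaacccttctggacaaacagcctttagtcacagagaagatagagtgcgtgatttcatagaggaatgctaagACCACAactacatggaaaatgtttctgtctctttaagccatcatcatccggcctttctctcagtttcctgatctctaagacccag
Gimap6, chr6:48708255-48708494, minus strand: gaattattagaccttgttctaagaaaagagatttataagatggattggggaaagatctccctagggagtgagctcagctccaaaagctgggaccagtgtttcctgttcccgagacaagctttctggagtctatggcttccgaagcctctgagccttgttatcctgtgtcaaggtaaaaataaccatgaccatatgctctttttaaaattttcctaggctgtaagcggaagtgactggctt
Gimap3, chr6:48770862-48771101, minus strand: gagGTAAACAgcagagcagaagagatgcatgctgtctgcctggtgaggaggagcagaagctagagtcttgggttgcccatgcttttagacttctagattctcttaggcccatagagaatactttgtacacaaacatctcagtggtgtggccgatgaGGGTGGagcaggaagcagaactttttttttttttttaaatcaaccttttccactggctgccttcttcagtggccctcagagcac
Gimap9, chr6:48675885-48676124, plus strand: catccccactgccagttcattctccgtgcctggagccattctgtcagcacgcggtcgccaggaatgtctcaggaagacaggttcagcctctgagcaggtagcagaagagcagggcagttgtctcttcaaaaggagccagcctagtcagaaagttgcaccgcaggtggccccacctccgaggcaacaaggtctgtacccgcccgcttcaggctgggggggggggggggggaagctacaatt

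RefSeq promoters were found for all 8 members, in 9 windows of 240 bases since Gimap8 has a pair of start sites. Motifs were searched on both strands. The kB consensus, the NF-kB motif, was in 0 of the 9 windows and in 7.0% of 32851 promoter windows of the same length. The core of the cyclic AMP response element (TGACG) was also in 0 of the 9 windows and in 16.9% of all windows. The KLF box occurred at Gimap3, Gimap4 and Gimap5 (27% of all windows), and the forkhead motif at Gimap3 (3.1%). The ETS motif AGGAAGT occurred at Gimap5 (7.3%) and the RUNX motif at Gimap1, Gimap4 and Gimap7 (13.6%). These are matches of letters within short windows, not shown to be bound, and no match says only that the letters are not in this window.

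Gimap messages were abundant in all libraries. The 8 members summed to between 1583 and 1893 RPKM in the stimulated libraries without drug and to 2847 and 2933 RPKM with pentoxifylline. In the sorted set the sum lay between 1975 RPKM, in the first WT aTreg library, and 3069 RPKM, in the first WT rTreg library. Gimap3 and Gimap4 together made up between 50.95% and 62.4% of the sum in every library. Only 29 to 81 genes of a library had a higher RPKM than its most abundant Gimap gene.

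In stimulated WT Tregs, 5 of the 8 Gimap genes were higher with pentoxifylline than with water and none was lower, with Gimap6 and Gimap1 at about 2 times their level in water. Of all 9945 genes tested, 43.5% were called in either direction, 19.6% as higher and 23.9% as lower. The 5 that rose were Gimap6, Gimap1, Gimap8, Gimap3 and Gimap7. The median of the 8 log2 differences was 0.68, against 0.00 over all genes tested. Differences throughout are between means of log2(RPKM + 0.5), with a threshold of 0.05 on the p-value adjusted over all genes tested.

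Gimap6, whose protein binds the autophagy factor Gabarapl2, was at 281 and 257 RPKM in the water libraries, at 539 and 541 RPKM with pentoxifylline and at 266 and 281 RPKM in c-Rel-deficient cells. Both drug libraries lay far above the other 4, which overlapped one another. The mean rose 2.01-fold, from 269 ± 17.2 (SD, n = 2) to 540.0 ± 1.87 (SD, n = 2) RPKM, a log2 difference of 1.00 (SE 0.16, limma, Benjamini-Hochberg adjusted p = 0.00285). Gimap1, needed for mature lymphocytes, was at 183 and 186 RPKM with water, 360.4 and 378 RPKM with the drug and 178 and 189 RPKM without c-Rel. Its pattern was the same, with the drug libraries apart from the rest and the c-Rel-deficient libraries on either side of the water libraries. The log2 difference with the drug was 1.00 (SE 0.14, limma, Benjamini-Hochberg adjusted p = 0.00211). Gimap8, the large member with several GTPase domains in a row, was at 101 and 73.8 RPKM with water, 166 and 156 RPKM with the drug and 78.3 and 80.0 RPKM without c-Rel. The water libraries differed from each other more than the drug libraries did, and the c-Rel-deficient libraries fell between them. Gimap8 rose by 0.90 (SE 0.17, adjusted p = 0.00601).

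Gimap3, a relative of Gimap5 that binds Bcl-2 family proteins at mitochondria, was at 499 and 469.9 RPKM with water, 741 and 835 RPKM with pentoxifylline and 456 and 443 RPKM without c-Rel. All 3 groups lay apart, with the drug libraries highest and the c-Rel-deficient libraries just under the water libraries. Its log2 difference with the drug was 0.70 (SE 0.18, limma, Benjamini-Hochberg adjusted p = 0.0183). Gimap7, a GTPase that is activated by pairing with itself, was at 118 and 87.9 RPKM with water, 162 and 161 RPKM with the drug and 59.1 and 81.5 RPKM without c-Rel. Again the groups did not overlap, with the drug libraries nearly equal and the water libraries well apart from each other. Gimap7 rose by 0.66 (SE 0.20, adjusted p = 0.0344). The calls of these last members depended on single libraries, and both were lost without either pentoxifylline library or without the second water library. Without the second water library, Gimap7 had a log2 difference of 0.45 (adjusted p = 0.179) and Gimap3 one of 0.66 (adjusted p = 0.0729). Without the first pentoxifylline library the adjusted p-values were 0.118 for Gimap7 and 0.0708 for Gimap3, and without the second they were 0.0971 and 0.107.

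The other 3 members did not pass the test. Gimap4, which promotes T cell death and binds Bax, was at 551 and 499.5 RPKM with water, 709 and 689 RPKM with pentoxifylline and 392 and 519 RPKM without c-Rel. The drug libraries were the highest, and the c-Rel-deficient libraries lay one below and one between the water libraries, for a log2 difference with the drug of 0.41 (SE 0.21, adjusted p = 0.140). Gimap5, the survival factor of the BB rat, was at 72.8 and 85.1 RPKM with water, 88.3 and 101 RPKM with the drug and 67.1 and 75.3 RPKM without c-Rel. Its drug libraries lay just above the others, a log2 difference of 0.26 (SE 0.15, adjusted p = 0.193). Gimap9 was at 86.6 and 84.1 RPKM with water, 81.3 and 71.3 RPKM with the drug and 86.3 and 92.0 RPKM without c-Rel. It was the only member whose drug libraries were the lowest of the set, and its log2 difference was -0.16 (SE 0.13, adjusted p = 0.349). The drug and water libraries did not overlap in 7 members with the drug above, as in 37.2% of all genes tested, and in Gimap9 with the drug below, as in 38.3%.

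**Figure D1:**
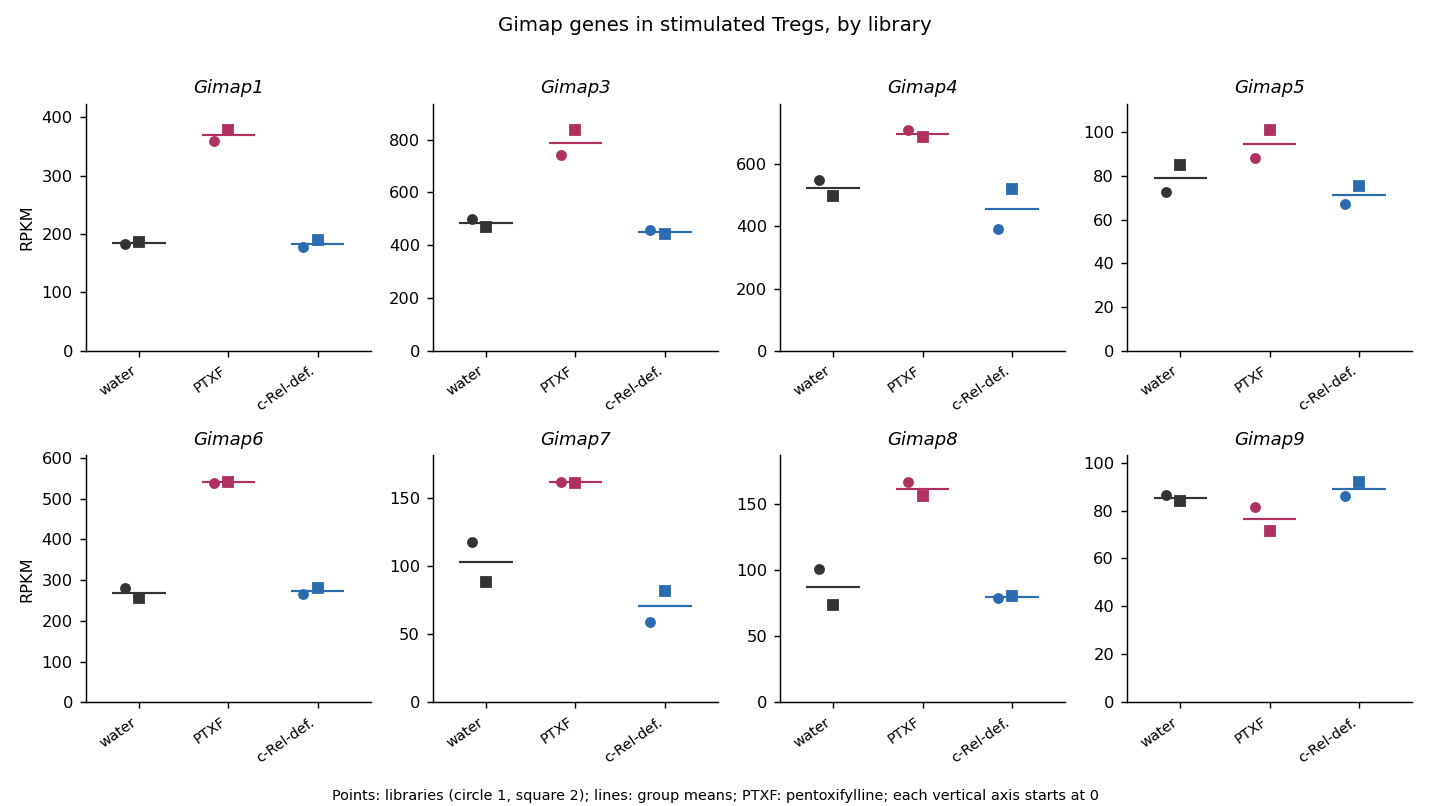
RPKM of each Gimap gene in the 6 stimulated libraries, with 1 panel per gene and a vertical axis from 0. Points are libraries and lines are group means of WT with water, WT with pentoxifylline (PTXF) and c-Rel-deficient Tregs; the drug libraries are the highest in every panel except that of Gimap9, where they are at 81.3 and 71.3 RPKM.

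Relative to Gimap9 of the same library, Gimap1 was at 2.11 and 2.22 times in the water libraries, 2.07 and 2.06 times in the c-Rel-deficient libraries and 4.43 and 5.30 times in the pentoxifylline libraries. Ratios to Gimap9 were chosen after the values were seen, and the difference between members was not tested. Gimap4 had the higher RPKM of the leading pair in both water libraries, and Gimap3 in both pentoxifylline libraries. In the authors' deposited table the same 5 members were past an adjusted p of 0.05, with log2 fold changes between 0.61 (Gimap7, adjusted p = 0.0450) and 0.97 (Gimap6, adjusted p = 3.41e-05). Gimap4 had 0.41 (adjusted p = 0.16) in the authors' deposited table.

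Of the markers of other cells, the endothelial list moved with the drug: its summed level was 32.6 to 33.8 RPKM in the water libraries and 48.6 to 57.0 RPKM in the pentoxifylline libraries. Of its 5 genes 3 were listed, and nearly all of the sum was Pecam1, which T cells also express. Cdh5 and Kdr, which define endothelial cells, were at or near 0 in all 6 stimulated libraries. Sums of the CD8 T cell, plasma cell, myeloid and erythroid lists overlapped between drug and water. Cd8b1, Xbp1 and Cst3 made up most of the first 3 sums, which therefore hide changes of low genes. Sdc1 of the plasma cell list was at 0.718 and 0.961 RPKM with water and 3.19 and 3.22 RPKM with the drug, while Igj overlapped. Tyrobp of the myeloid list was at 1.78 and 1.53 RPKM with water and 0.916 and 0.237 RPKM with the drug, while Lyz2 overlapped and Cd14 was higher with the drug. The B cell list was lower with the drug (5.2 to 6.14 against 7.41 to 10.3 RPKM), and the NK and cytotoxic list was slightly higher (7.04 to 7.54 against 5.70 to 6.98 RPKM). Their part in the Gimap differences was not tested.

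No Gimap gene was called for c-Rel deletion in stimulated cells, where Gimap7 stood lowest against WT. None of the 8 members was called against WT with water, and 0.0% of all 9945 genes were (0 genes in limma, 791 at an unadjusted p under 0.05). Both comparisons use the same water libraries. The members' log2 differences lay between -0.55 and 0.06, with a median of -0.12 against 0.06 over all genes tested. The lowest was Gimap7, -0.55 (SE 0.20, limma, unadjusted p = 0.0301, adjusted p = 0.550), and Gimap6 and Gimap1 differed by 0.02 and -0.01. The fit thus did not call even Rel, the deleted gene, so its count of 0 does not show that c-Rel loss changed no gene. In the authors' deposited table an adjusted p under 0.05 was reached by 306 of 14290 genes (2.14%), 69 higher and 237 lower. Rel was among them, at -3.38 (adjusted p = 2.9e-45), but no member was. Gimap7 had -0.67 there (adjusted p = 0.184). Without the second c-Rel-deficient library, the one with more Rel message, 284 genes and no member were called, and Gimap7 differed by -0.78 (adjusted p = 0.164), and without the first by -0.32 (adjusted p = 1.000). In Gimap3 and Gimap7 the c-Rel-deficient libraries lay below both water libraries without overlap, as in 16.3% of all genes, and in no member were they above, against 24.2%. The B cell sum (5.16 to 5.26 against 7.41 to 10.3 RPKM) and the myeloid sum (74.0 to 83.6 against 85.7 to 124 RPKM) were lower without c-Rel. The plasma cell sum was slightly lower, and those of the other lists of other cells overlapped. Their part was not tested.

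Set against each other directly, pentoxifylline and c-Rel deletion differed in 6 of 8 members, all higher with the drug (48.4% of all genes were called, 21.6% as higher and 26.8% as lower). The libraries did not overlap in 7 members with the drug above (38.0% of all genes) and in Gimap9 with the drug below (39.5%). Gimap7 differed most, by 1.21 (SE 0.20, limma, Benjamini-Hochberg adjusted p = 0.00301). Gimap8 (1.02), Gimap1 (1.00), Gimap6 (0.98), Gimap3 (0.81) and Gimap4 (0.63, adjusted p = 0.0384) were the others. The call of Gimap4 was lost without either pentoxifylline library or the first c-Rel-deficient library, where its adjusted p was 0.162, 0.122 and 0.227, and that of Gimap3 without the second pentoxifylline library (0.0652). Gimap5 had a log2 difference of 0.41 (SE 0.15, adjusted p = 0.0566), called with the replicate number as a block (adjusted p = 0.0361), and Gimap9 one of -0.22 (SE 0.13, adjusted p = 0.196). All of these values share libraries with the comparisons above.

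Genes outside the cluster were counted from lists for the pathways around the family. Of 22 genes of quiescence and survival of naive T cells, 15 rose and 1 fell with pentoxifylline (median 0.82). The largest changes were in Klf2, a quiescence factor, which differed by 1.92 (SE 0.17, adjusted p = 0.000646), in S1pr1, the receptor that guides exit from lymphoid organs, by 1.92 (SE 0.14, adjusted p = 0.000523), and in Igfbp4, by -1.91 (SE 0.36, adjusted p = 0.00557). Among 7 genes of reported protein partners, 3 rose and 1 fell (median 0.28). Bcl2l11, which encodes the death factor Bim, rose by 1.58 (SE 0.23, adjusted p = 0.00213), Bcl2, which opposes it, by 1.03 (SE 0.13, adjusted p = 0.00129), and Bax, a pore-forming death factor that binds Gimap4, fell by 0.94 (SE 0.14, adjusted p = 0.00254). Gabarapl2, the partner of Gimap6, had 0.04 (SE 0.18, adjusted p = 0.884), and Gsk3b, the kinase restrained by Gimap5, rose by 0.70 (SE 0.14, adjusted p = 0.00787). Of 13 tested genes of other immune GTPase families (the interferon-induced Gbp, Irg and Mx families, and Dnm1l), 8 fell and none rose (median -0.84). The largest falls were in Iigp1, -3.45 (SE 0.68, adjusted p = 0.00669), Irgm1, -2.27 (SE 0.42, adjusted p = 0.00528), and Gbp6, -2.19 (SE 0.42, adjusted p = 0.00612), while no Gimap gene fell.

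Genes on either side of the cluster were counted too. Of 15 listed neighbours 8 were tested, and 1 rose and 2 fell with the drug (median 0.07). Zfp467, a zinc finger gene, rose by 0.86 (SE 0.25, adjusted p = 0.0273), and Tmem176a, a membrane protein gene, differed by -1.28 (SE 0.36, adjusted p = 0.0254). Repin1, a zinc finger gene on the Gimap8 side, differed by -1.14 (SE 0.20, adjusted p = 0.00448). The means of these 3 neighbours lay between 0.696 RPKM (Tmem176a with the drug) and 8.16 RPKM (Zfp467 with the drug), far below those of the members. Within the cluster, Gimap9 and Gimap4, which were not called, lay between Gimap8 and Gimap6, and Gimap5, also not called, between Gimap1 and Gimap3.

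**Figure D2:**
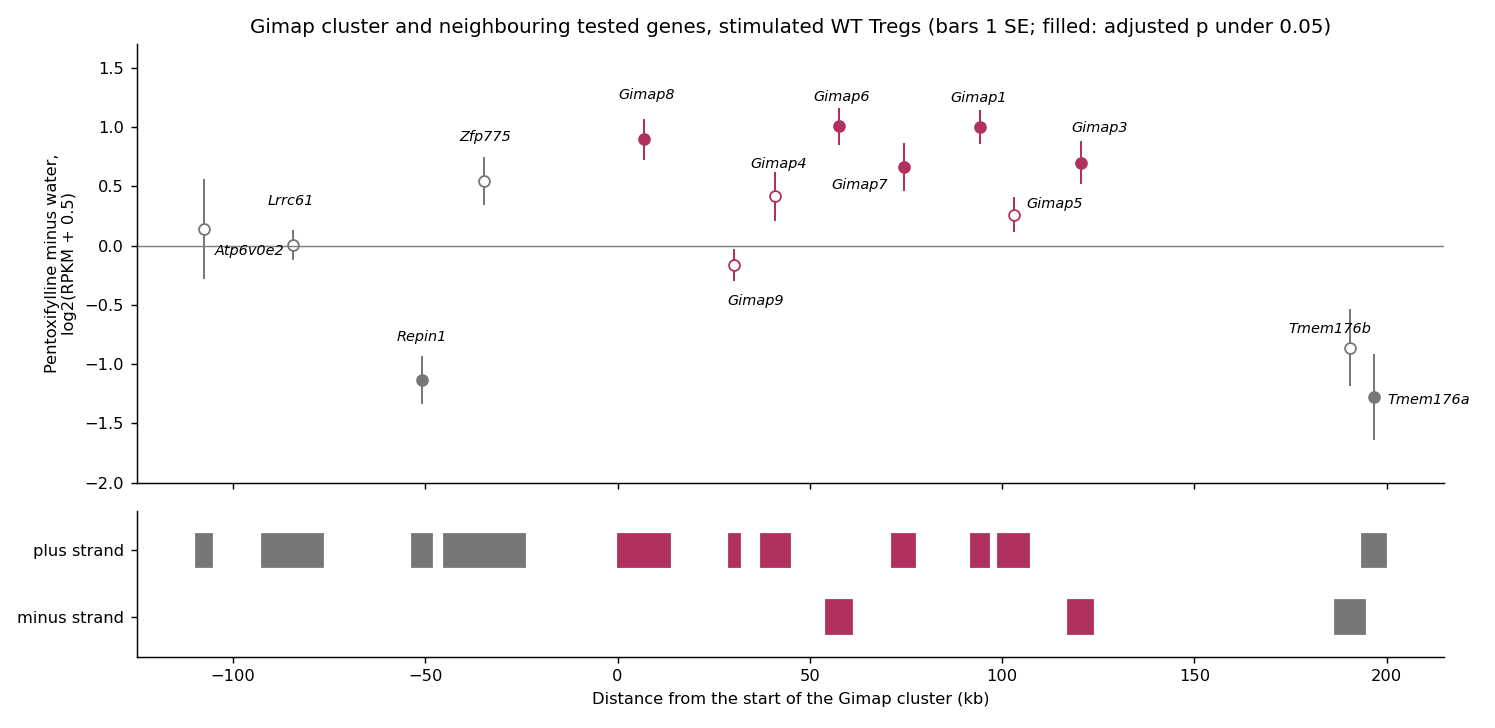
Log2 difference between pentoxifylline and water (top, bars 1 SE, filled where the adjusted p was under 0.05) for the 8 Gimap genes (red) and 6 tested neighbours (grey), above their position and strand (bottom), in kb from the start of Gimap8. The 5 Gimap genes at 0.66 to 1.00 are filled and above 0, while Repin1 and Tmem176a are filled and below 0. Zfp467, a tested neighbour that was called as higher, is not drawn.

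In uncultured Tregs the order of the members by RPKM was nearly fixed. In all 6 sorted groups Gimap3 had the highest group mean, followed by Gimap4, Gimap6 and Gimap1, with Gimap8 seventh and Gimap5 lowest. The fifth and sixth places went to Gimap9 and Gimap7 in rTregs and to Gimap7 and Gimap9 in aTregs of all 3 genotypes. That exchange held within 11 of the 13 libraries, the exceptions being the first c-Rel-deficient rTreg library and the c-Rel-deficient aTreg library numbered 3. Of the 8 members, 6 had their highest value of the 13 libraries in the first WT rTreg library, so comparisons with WT rTregs rest in part on it.

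Gimap9 was the only member that differed between WT aTregs and WT rTregs, at 0.638 of its rTreg level. It was at 191 and 141 RPKM in WT rTregs and at 97.01, 99.7 and 121 RPKM in WT aTregs, and these did not overlap. The log2 difference was -0.64 (SE 0.17, limma, Benjamini-Hochberg adjusted p = 0.0381). For the same contrast, the authors' deposited table gave -0.77 (adjusted p = 0.0226). Of all 10656 genes tested, 12.2% were called in either direction, 7.54% as higher and 4.68% as lower in aTregs. The call was lost without the first WT rTreg library (-0.42, adjusted p = 0.173), without the first WT aTreg library (-0.58, adjusted p = 0.137) and without the second (-0.60, adjusted p = 0.108). Without WT aTreg library 3 the difference was -0.74 (adjusted p = 0.0178). In p65-deficient cells Gimap9 was at 122 and 143 RPKM in rTregs and 109 and 121 RPKM in aTregs, and in c-Rel-deficient cells at 128 and 151 RPKM in rTregs and 112 and 134 RPKM in aTregs. Their means were lower in aTregs too, by log2 differences of -0.20 (SE 0.18, adjusted p = 0.532) and -0.18 (SE 0.18, adjusted p = 0.677).

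The other 7 members were not called between WT subsets. Gimap4 was at 842 and 616 RPKM in WT rTregs and 461, 476 and 630.1 RPKM in WT aTregs, where the third aTreg library exceeded the lower rTreg library. Its log2 difference was -0.48 (SE 0.19, adjusted p = 0.114), and it was called without the second WT rTreg library (adjusted p = 0.0394) or without the third WT aTreg library (adjusted p = 0.0394). Gimap6 was at 431 and 275 RPKM in rTregs and 229, 237 and 293 RPKM in aTregs. The groups overlapped, with a log2 difference of -0.45 (SE 0.20, adjusted p = 0.145), which was called without the second WT rTreg library (adjusted p = 0.0238). Gimap3 was at 936 and 882 RPKM in rTregs and 639, 691 and 775 RPKM in aTregs. These did not overlap, as in Gimap9 and in 21.9% of all genes with aTregs below, but the log2 difference of -0.38 (SE 0.15, adjusted p = 0.103) was not called.

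Gimap1 was at 321 and 209.7 RPKM in WT rTregs and 233, 239.99 and 259 RPKM in WT aTregs, a log2 difference of -0.09. Gimap5 was at 77.8 and 55.3 RPKM in rTregs and 75.8, 69.8 and 64.4 RPKM in aTregs (0.09). In both, the rTreg libraries lay on either side of all 3 aTreg libraries. Gimap7 was at 173 and 121 RPKM in rTregs and 134, 172 and 165 RPKM in aTregs (0.11), and Gimap8 at 98.2 and 126 RPKM in rTregs and 106, 104 and 105 RPKM in aTregs (-0.09). The Gimap8 libraries of WT aTregs were nearly equal and lay between the rTreg libraries. The median of the members' log2 differences was -0.23, against -0.06 over all genes.

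Of the 22 quiescence genes, 6 fell and none rose in aTregs (median -0.93), among them Ccr7, a lymphoid homing receptor, -1.62 (SE 0.44, adjusted p = 0.0414), Bcl2, -1.59 (SE 0.42, adjusted p = 0.0376), and Pik3ip1, an inhibitor of PI3 kinase signalling, -1.41 (SE 0.33, adjusted p = 0.0292). Of the 7 reported partners, 2 fell and 1 rose (median -0.34), the rise in Bcl2l1, which encodes Bcl-xL, 0.88 (SE 0.25, adjusted p = 0.0481), and the falls in Bcl2 and Bcl2l11, -0.85 (SE 0.25, adjusted p = 0.0499). Of 7 tested neighbours only Repin1 was called, 1.25 (SE 0.22, adjusted p = 0.0152), with a list median of 0.22, and none of 15 other immune GTPase genes was (median -0.16, limma). Pecam1 again carried the endothelial list, at a sum of 66.1 to 85.2 RPKM in WT rTregs and 33.3 to 62.7 RPKM in WT aTregs. The CD8 T cell list summed to 16.5 to 22.1 RPKM in WT rTregs and 9.17 to 15.2 RPKM in WT aTregs, and the part of these lists in the difference of Gimap9 was not tested. The B cell, plasma cell, NK and cytotoxic, myeloid and erythroid lists overlapped between WT rTregs and WT aTregs.

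**Figure D3:**
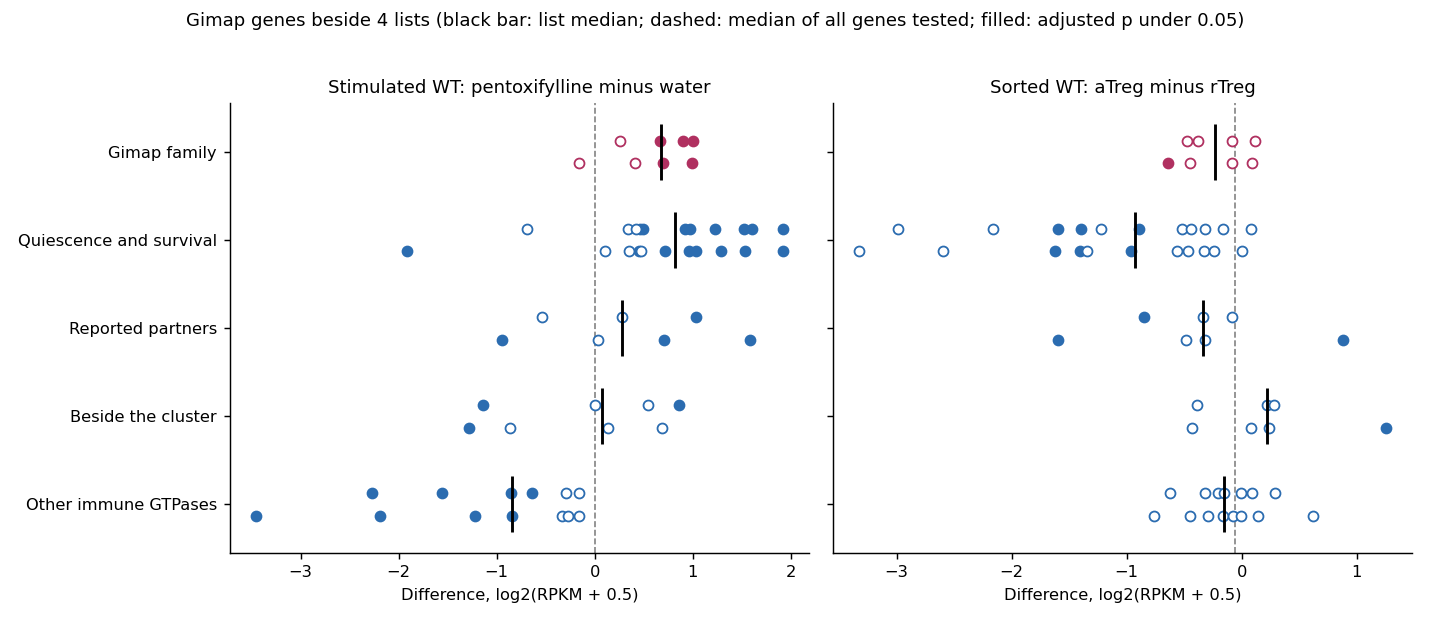
Log2 differences of the Gimap genes (red) and of 4 gene lists (blue) in stimulated WT Tregs with pentoxifylline against water (left) and in sorted WT aTregs against rTregs (right). Each point is a gene, filled where the adjusted p was under 0.05, with black bars for list medians and a dashed line for the median of all genes; the Gimap median is 0.68 on the left and -0.23 on the right.

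Without p65, the largest subset difference was in Gimap7, at 104 and 112 RPKM in rTregs and 179 and 202 RPKM in aTregs. These libraries did not overlap, and the log2 difference of 0.82 (SE 0.22, limma, Benjamini-Hochberg adjusted p = 0.0710) missed the threshold. Gimap5 was at 49.9 and 54.4 RPKM in p65-deficient rTregs and 69.0 and 77.7 RPKM in aTregs, a log2 difference of 0.49 (SE 0.16, adjusted p = 0.113). None of the 8 members was called in limma, against 3.17% of all genes, 2.79% as higher and 0.385% as lower in aTregs (2 members and 2333 genes at an unadjusted p under 0.05). With only the p65-deficient groups in the model both were called (adjusted p = 0.0174 for Gimap7 and 0.0463 for Gimap5). Gimap1, at 217 and 229.8 RPKM in rTregs and 231 and 269 RPKM in aTregs, made up the third member with aTregs above without overlap, as in 27.2% of all genes. Gimap8 and Gimap9 were below without overlap, as in 37.0%. Gimap3, Gimap4 and Gimap6 differed by -0.02, 0.07 and 0.03, each smaller than its SE, and the median of the 8 was 0.05 against -0.06 over all genes. The B cell sum was 10.5 to 10.97 RPKM in these rTregs and 22.7 to 23.4 RPKM in aTregs, and the endothelial sum 85.8 to 95.0 and 48.9 to 49.4 RPKM. The CD8 T cell and the NK and cytotoxic sums were lower in aTregs, and the plasma cell sum higher. The myeloid and erythroid sums overlapped. Their part in these differences was not tested.

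Without c-Rel, the members' subset differences lay between -0.24 (Gimap3) and 0.24 (Gimap5), with a median of -0.11 against -0.05 over all genes. None was called, as for 0.0% of all genes (limma, 0 genes, with 1494 genes and 0 members at an unadjusted p under 0.05). Without the second c-Rel-deficient rTreg library, which had the low Foxp3, the median was -0.04 and no member was called. Gimap3 was at 821 and 783 RPKM in c-Rel-deficient rTregs and 655 and 705 RPKM in aTregs, and Gimap5 at 53.2 and 55.8 RPKM in rTregs and 65.4 and 63.3 RPKM in aTregs. Libraries did not overlap in either, nor in Gimap4, at 713 and 681 RPKM in rTregs and 659 and 636 RPKM in aTregs. In 30.2% of all genes aTregs were below and in 21.9% above without overlap in these cells. Gimap6 was at 294 and 379 RPKM in c-Rel-deficient rTregs and 278 and 300.0 RPKM in aTregs, and Gimap7 at 154 and 109 RPKM in rTregs and 152 and 125 RPKM in aTregs. Both overlapped, as did Gimap1 (203 and 234 RPKM in rTregs and 237 and 217 RPKM in aTregs) and Gimap8 (94.2 and 107 RPKM in rTregs and 91.6 and 94.3 RPKM in aTregs).

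**Figure D4:**
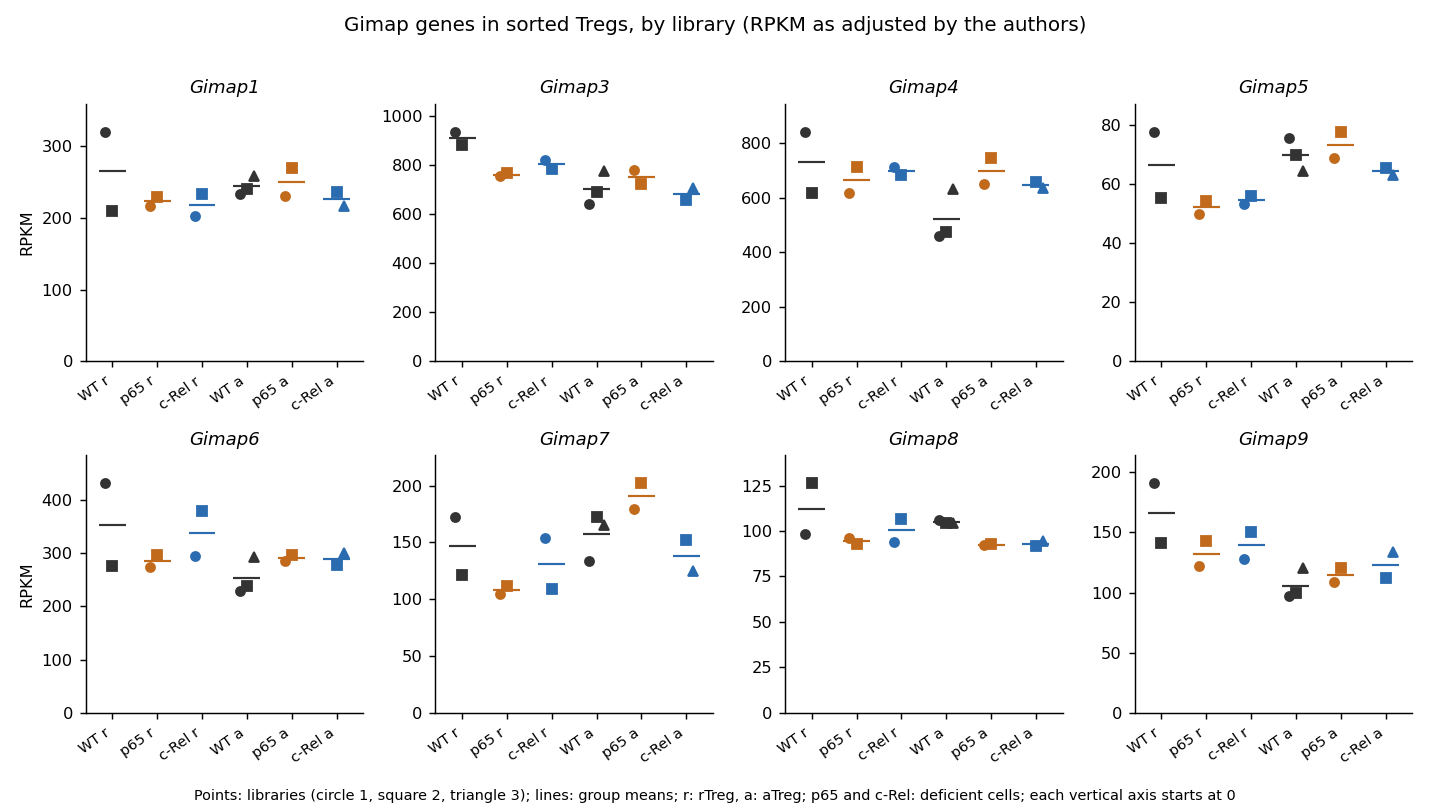
RPKM, as adjusted by the authors, of each Gimap gene in the 13 sorted libraries, with 1 panel per gene and a vertical axis from 0. Points are libraries and lines are group means; r is rTreg, a is aTreg, and p65 and c-Rel are the deficient cells. The first WT rTreg library is the highest point in 6 panels, and in Gimap9 the 3 WT aTreg points (97.01 to 121 RPKM) lie below both WT rTreg points.

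In rTregs no Gimap gene was called for loss of p65 or c-Rel, and all 8 lay lower in the deficient cells than in WT by their log2 means. None was called in either comparison in limma, and 0.0% of all 10656 genes were called in each (0 genes; 726 for p65 and 775 for c-Rel at an unadjusted p under 0.05, with 0 members in both). The authors' deposited values gave 5 genes for p65 and 4 for c-Rel at an adjusted p under 0.05, of 14818, and no member. Rel was at -2.48 there without c-Rel (adjusted p = 4.7e-06), a change that the limma fit did not call. In limma all 8 member differences were below 0 without p65, with a median of -0.26 against -0.03 over all genes. The range ran from -0.42 (Gimap7, adjusted p = 0.776) to -0.12 (Gimap4). All 8 were also below 0 without c-Rel, with a median of -0.17 against -0.02, and both comparisons share the WT rTreg libraries. Without the first of these, 5 of 8 were below 0 for p65 (median -0.09) and 4 of 8 for c-Rel (median 0.02). Without the second c-Rel-deficient rTreg library 7 of 8 were below 0 for c-Rel (median -0.23). Of the other cell types' lists, the erythroid sum was higher in p65-deficient (12.7 to 16.0 RPKM) and c-Rel-deficient rTregs (10.3 to 29.8 RPKM) than in WT (0.213 to 7.73 RPKM). The B cell sum was lower without p65 (10.5 to 10.97 against 15.1 to 18.7 RPKM) and the endothelial sum slightly higher (85.8 to 95.0 against 66.1 to 85.2 RPKM). Their part in the differences was not tested. Gimap5 was at 77.8 and 55.3 RPKM in WT, 49.9 and 54.4 RPKM in p65-deficient and 53.2 and 55.8 RPKM in c-Rel-deficient rTregs. Gimap3, at 936 and 882 RPKM in WT, 755 and 766 RPKM in p65-deficient and 821 and 783 RPKM in c-Rel-deficient rTregs, kept the 3 genotypes apart, with WT highest. Without p65, 4 members (Gimap3, Gimap5, Gimap7 and Gimap8) were below WT without overlap, as in 17.2% of all genes, none was above, against 13.9%, and without c-Rel Gimap3 alone was below, as in 14.2%.

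In aTregs, too, no member was called without p65 or without c-Rel, and 0.0% of all genes were in both (limma, 0 genes; 365 and 717 genes at an unadjusted p under 0.05, with 1 and 0 members). The member at an unadjusted p under 0.05 was Gimap4, at 461, 476 and 630.1 RPKM in WT aTregs, 651 and 745 RPKM without p65 and 659 and 636 RPKM without c-Rel. All 4 deficient libraries lay above the 3 WT libraries. The log2 difference was 0.43 without p65 (SE 0.19, limma, unadjusted p = 0.0480, adjusted p = 0.998) and 0.32 (SE 0.19, adjusted p = 0.843) without c-Rel. Gimap8 lay the other way, at 106, 104 and 105 RPKM in WT, 92.0 and 92.7 RPKM without p65 and 91.6 and 94.3 RPKM without c-Rel, so that WT was above both. Its log2 differences were -0.18 (SE 0.12, adjusted p = 0.998) and -0.18 (SE 0.12, adjusted p = 0.870). In the authors' deposited table Gimap8 had -0.02 without p65 and -0.14 without c-Rel, and Gimap4 had 0.51 and 0.30. Gimap7 was above WT without overlap in p65-deficient aTregs only (0.28, SE 0.20). Shares of all genes apart in this way were 9.89% above and 11.7% below for p65, and 11.8% and 13.8% for c-Rel. The NK and cytotoxic list summed to 20.5 to 54.9 RPKM in c-Rel-deficient aTregs against 3.52 to 13.1 RPKM in WT, with Klrb1c at 25.05 and Klrd1 at 19.9 RPKM in the c-Rel-deficient library numbered 2, and the plasma cell list to 81.6 to 84.1 RPKM without p65 against 67.4 to 80.1 RPKM in WT. Their part was not tested. Without that c-Rel-deficient library no member was called and the median for c-Rel was -0.07, as with it. The remaining members overlapped with WT in both, within -0.12 and 0.22. For aTregs the authors' deposited values gave 29 genes for p65 and 77 for c-Rel at an adjusted p under 0.05, of 14818, and no member. Rel was at -2.73 there without c-Rel (adjusted p = 1.5e-09), which the limma fit again did not call.

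**Figure D5:**
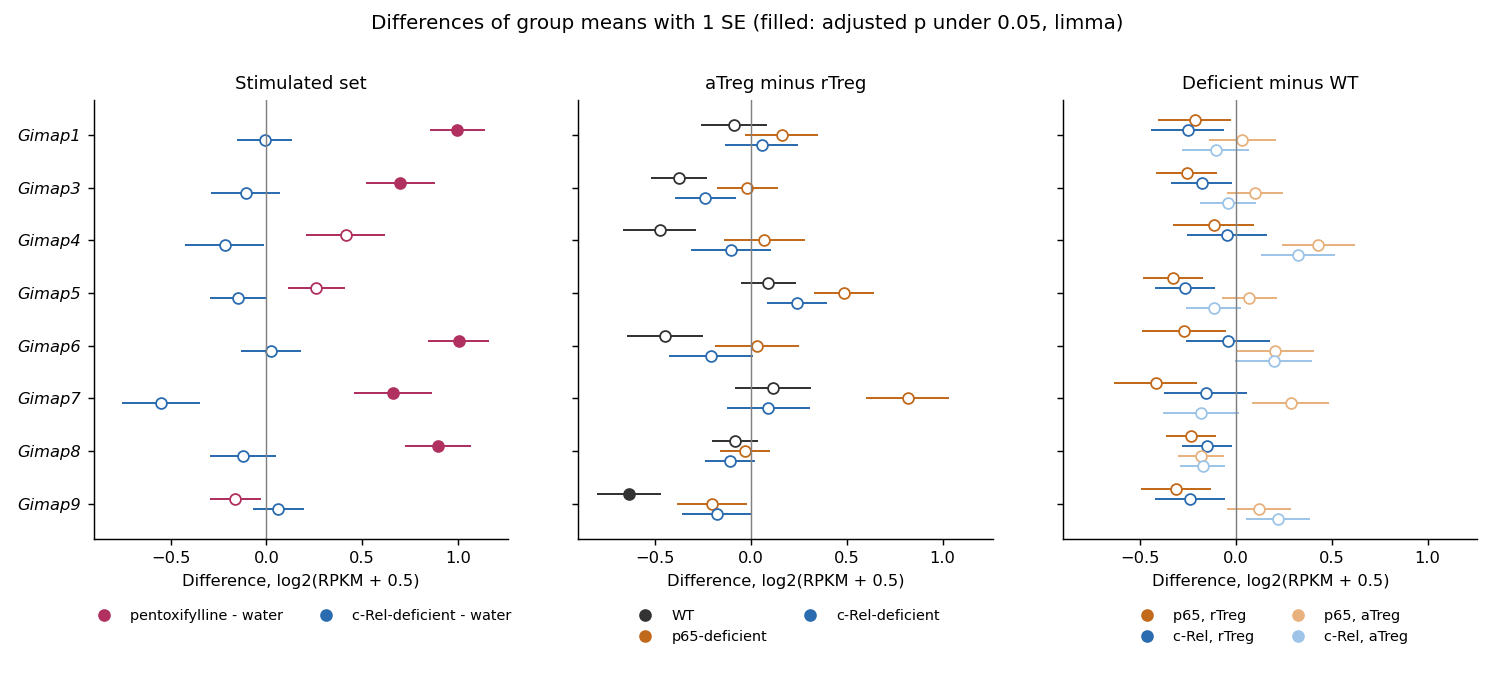
Log2 differences with 1 SE for each Gimap gene in the stimulated set (left), between aTregs and rTregs of each genotype (middle) and between deficient and WT cells of each subset (right); filled points had an adjusted p under 0.05. Filled points are 5 genes under pentoxifylline and Gimap9 in WT aTregs against rTregs, and none stands in the right panel.

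Whether the subset difference itself depended on genotype was tested as an interaction. No member was called for p65 or for c-Rel, and 0.0% of all genes were in each (limma, 0 genes; 237 and 497 genes at an unadjusted p under 0.05). For p65 all 8 interaction values were above 0, with a median of 0.42 against 0.01 over all genes, and 7 of 8 were above 0 (median 0.22) without the first WT rTreg library. Gimap7 had the largest, 0.70 (SE 0.30, unadjusted p = 0.0373, limma adjusted p = 0.998). For c-Rel 6 of 8 were above 0, with a median of 0.15 against 0.03, and Gimap9 had the largest, 0.46 (SE 0.25, adjusted p = 0.898). Without the first WT rTreg library 4 of 8 were above 0 for c-Rel (median 0.01). The lower Gimap9 of WT aTregs was thus not shown to differ from that in deficient cells.

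Across the 9 groups, the genes whose pattern was most like the mean of the family were Zfp68 (Pearson r = 0.993), Tax1bp3 (0.993), Rassf1 (0.991), Ech1 (0.989) and Slc35d2 (0.984). This was over 9 group means of log2 values, each set centred on its own mean, among 9276 genes tested in both sets. The points share libraries and reference groups, and the pentoxifylline group mean lay farthest from 0. Tax1bp3 stood at 0.64 above its set mean with pentoxifylline and at -0.45 in c-Rel-deficient cells. Each member is itself part of the family mean, which raises its likeness to it. Of the members, Gimap3 (0.96) was closest to that mean, followed by Gimap1 (0.95), Gimap8 and Gimap6 (0.94 each). Gimap5 was at 0.63 and Gimap9 at -0.07, the lowest of the 8.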

How the data were processed

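Bulk RNA-seq libraries of sorted or stimulated mouse Tregs were read from the tables deposited by the authors. The processing notes of the submitters name STAR, the mm10 genome and DESeq2 1.10.1. Deposited RPKM values of the stimulated set are normalised by gene length and depth. Deposited values of the sorted set had been adjusted by the authors in a way not given in the sources used here (2.53% were below 0, the lowest -30.7), and were treated as a score on the RPKM scale, so p-values of that set rest on values whose spread the adjustment may have changed. Log2 fold changes and p-values in the authors' deposited table are their own, and adjusted p-values for it were computed here by the Benjamini-Hochberg method.

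Values below 0 were set to 0, a pseudocount of 0.5 was added and log2 was taken. Genes that reached 1 RPKM in 2 or more libraries were kept, and limma 3.58.1 (R 4.3.3, trended variances, two-sided) was fitted over all groups of a set. P-values were adjusted over all genes tested, with a threshold of 0.05. The fit was tested on simulated data with the same noise in every gene and changes in well expressed genes only. That test does not give the power of the fit in these libraries. Log2 differences on this scale understate changes of low genes. The members, lists and tests were chosen with earlier results of these data known. Named genes were all 8 members, the 3 list genes with the largest changes among those called, and the 5 genes with the most similar pattern; Gabarapl2 and Gsk3b were added after their values were seen.

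No label says that equal replicate numbers mark a shared mouse or batch, and the reported fit has no block. Correlations of deviations between equally numbered libraries ran from -0.07 to 0.40 in the stimulated set and from -0.49 to 0.44 in the sorted set. Across all groups they were too uneven to take the numbers as pairs. The value of 0.40 was that of water with pentoxifylline, whose Xist also matched by number, so these libraries may be paired. With the number as a block, 5 members were called for that comparison, as without it. Some low values of the sorted set were nevertheless the same in libraries with the same number (Pax5 was at 0.0448 in all 5 libraries numbered 1), so the number may mark something shared. Alternatives were other pseudocounts, filters and scaling, a model of the compared groups alone, the replicate number as a block, and omission of single libraries. Motifs and sequences came from RefSeq tables of GRCm38.p6, positions from GENCODE M21. One gene of the lists and checks, and its use in the sort, is not reported here.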

Additional observations from a re-analysis of the deposited data

How the results depend on the processing

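Across the alternatives run, 140 of 151 counts of called members stayed within 1.5 times of the reported count. Of 1208 single member results, 1185 kept their side of the threshold, while 17 lost their call and 6 gained one. Most of the comparisons had a reported count of 0, which could not fall, so these totals say little about the comparisons with called members. The sign changed in 48 of the 1208, in 0 of them with a call on either side. With no filter on low values, pentoxifylline against water called 3 members. With only the groups compared in the model, the WT subset comparison called 0 members (200 genes in all against 1302) and the p65-deficient one 2 (1451 genes against 338). Leaving out 1 library at a time gave 3 to 5 members for pentoxifylline against water (2232 to 3600 genes against 4324), 4 to 6 for pentoxifylline against c-Rel deletion, and 0 to 3 for the WT subsets (83 to 2963 genes). The p65-deficient subset comparison then called 0 members and 0 to 11 genes. Where this left a group with 1 library, that library was assumed to vary like the other groups. The causes of these changes were not tested. With the replicate number as a block, 5 members were called for pentoxifylline against water, 7 against c-Rel deletion (Gimap5 was added, adjusted p = 0.0361, limma) and 1 between WT subsets. The block called 2077 genes between WT subsets, 731 between p65-deficient and 901 between c-Rel-deficient subsets, where 0 were called without it. Without both libraries numbered 3, chosen after seeing the data, the count of called members did not change, but 228 genes were called between c-Rel-deficient subsets. Groups of 2 or 3 libraries limit the precision throughout.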
